A study of Mus musculus with 6 samples.

Results

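The genes described here were 40 genes of the ATF4 response and of amino acid synthesis and transport, chosen by name and found under those symbols among the 25330 genes of the AML12 tables. They comprised 16 regulators, kinases and secreted factors, 10 enzymes of serine, one-carbon and transsulfuration metabolism, 5 enzymes of asparagine, proline and transaminase reactions, and 9 amino acid transporters. AML12 is a wild-type mouse hepatocyte line, first derived from mice that carried a TGF-alpha transgene. The study sequenced mRNA from 3 libraries of normoxic cells (Control, 21% O2) and 3 libraries of cells after hypoxia and reoxygenation (H/R, 6 h at 1% O2 and then 2 h of reoxygenation). All cells were grown with 10% serum, an insulin, transferrin and selenium supplement and dexamethasone at 40 ng/ml, but the H/R cells were moved to serum-free and glucose-free medium before hypoxia, so that effects of oxygen and of medium cannot be told apart. The labels do not say whether the 3 libraries of a group came from separate cultures, so p-values measure only the spread between these libraries.

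Background for these genes is the integrated stress response. The kinases encoded by Eif2ak1 (HRI, which senses haem shortage and mitochondrial stress), Eif2ak2 (PKR), Eif2ak3 (PERK, which senses ER stress) and Eif2ak4 (GCN2, which senses uncharged tRNA) phosphorylate the initiation factor eIF2. General translation then falls while the mRNA of Atf4 is translated better, and the ATF4 protein, paired with C/EBP proteins, activates genes for amino acid uptake, amino acid synthesis, redox defence and feedback on eIF2. Because ATF4 is controlled largely at translation, the Atf4 mRNA level is not a measure of ATF4 protein. In hepatocytes this pathway is known to respond to amino acid shortage, ER stress and mitochondrial stress.

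The element through which ATF4 and C/EBP proteins act, the C/EBP-ATF response element, has the core TGATGNAA. RefSeq promoters (GRCm38.p6, the genome build of the tables) were matched by symbol for 34 of the 40 genes, and both strands of the 250 bases before each start were searched. The core was present in 7 of these 34 genes (20.6%) and in 3.91% of all 27025 genes with a promoter in the table. The cyclic AMP response element TGACGTCA, which ATF and CREB proteins bind, was present in 1 of the 34 (2.94%) and in 1.77% of all genes, and no member promoter held both motifs. The stretches around the matches are shown because they can be read beside the levels given for the same genes in the text that follows, with the motif in capitals, 5′ to 3′ on the strand of the gene. The Asns and Nupr1 stretches are shorter because they lie within or next to exons of the deposited gene models.
Chac1, chr2:119351019-119351086, plus strand: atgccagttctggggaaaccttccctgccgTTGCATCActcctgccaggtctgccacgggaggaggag
Nupr1, chr7:126625562-126625591, minus strand: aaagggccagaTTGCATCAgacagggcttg
Jdp2, chr12:85599353-85599415, plus strand: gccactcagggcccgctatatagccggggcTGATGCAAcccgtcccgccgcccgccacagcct
Fgf21, chr7:45615592-45615659, minus strand: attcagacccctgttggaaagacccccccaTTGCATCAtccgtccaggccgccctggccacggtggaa
Asns, chr6:7693214-7693243, minus strand: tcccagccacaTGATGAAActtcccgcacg
Got1, chr19:43524670-43524737, minus strand: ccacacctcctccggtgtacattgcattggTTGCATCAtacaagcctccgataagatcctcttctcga
Pycr1, chr11:120643814-120643881, minus strand: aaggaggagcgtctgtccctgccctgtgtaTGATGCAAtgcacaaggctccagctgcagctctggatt
Ppp1r15a, chr7:45526269-45526310, minus strand: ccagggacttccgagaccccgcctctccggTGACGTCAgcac
The motif TTGCATCA is the core read on the other strand. The matches of Chac1, Fgf21, Nupr1, Pycr1 and Got1 began at positions -193, -139, -110, -103 and -102 from the RefSeq start, and those of Jdp2, Asns and Ppp1r15a at -33, -23 and -12. A match describes letters in this window and is not evidence of binding.

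The libraries held between 20438746 and 21854790 counts. The hepatocyte factor Hnf4a had 2035 to 3209 counts and Foxa2 1247 to 1378 counts in every library, but Alb had only 31 to 542 counts, and the bile duct keratin Krt19 had 18321 to 37240, so that the cells carried markers of both lineages. Of 15 markers of other liver cells, 9 had at most 3 counts in every library, among them Ptprc, Adgre1 and Pecam1. The summed counts of these 15 markers were 18568 to 21580 in Control and 34946 to 38423 in H/R libraries, mostly Krt19, and Sox9 and Cd68 were higher in every H/R library. Their part in the results below was not tested. Control replicate 1 held 777 counts of 20 adult liver genes against 99 to 215 in the other libraries, and values without it are given for members whose call it changed and for Gdf15. In bulk RNA, fewer cells of a type and less RNA per cell cannot be told apart.

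Of the 40 genes, 36 had enough counts for a test, each with at least 10 counts in every library. After H/R 23 rose, 5 fell and 8 were not called at an adjusted p under 0.05 (quasi-likelihood test of edgeR, adjusted by the Benjamini-Hochberg method over 14020 genes). At that threshold 31% of all tested genes were higher and 31.8% lower, 62.8% in either direction. Among the members, 7 passed this threshold with a change of 2-fold or more, all higher and all in the group of regulators, kinases and secreted factors, where 4.25% of all tested genes were higher and 4.27% lower by both criteria. None of the members was lower by both criteria, either in edgeR, in DESeq2 or at an unadjusted p under 0.05 in edgeR. The median log2 fold change was 0.56 over the 36 members and -0.01 over all tested genes. The lowest H/R value exceeded the highest Control value in 22 members, and the highest H/R value was under the lowest Control value in 6 (32.5% and 33.5% of all tested genes). With library totals in place of TMM scaling, the median of all tested genes moved to -0.12 and that of the members to 0.45, and 22 members were higher and 9 lower. Higher genes then made up 71.0% of the called members instead of 82.1%, and 37.9% of all called genes instead of 49.4%.

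**Figure D1:**
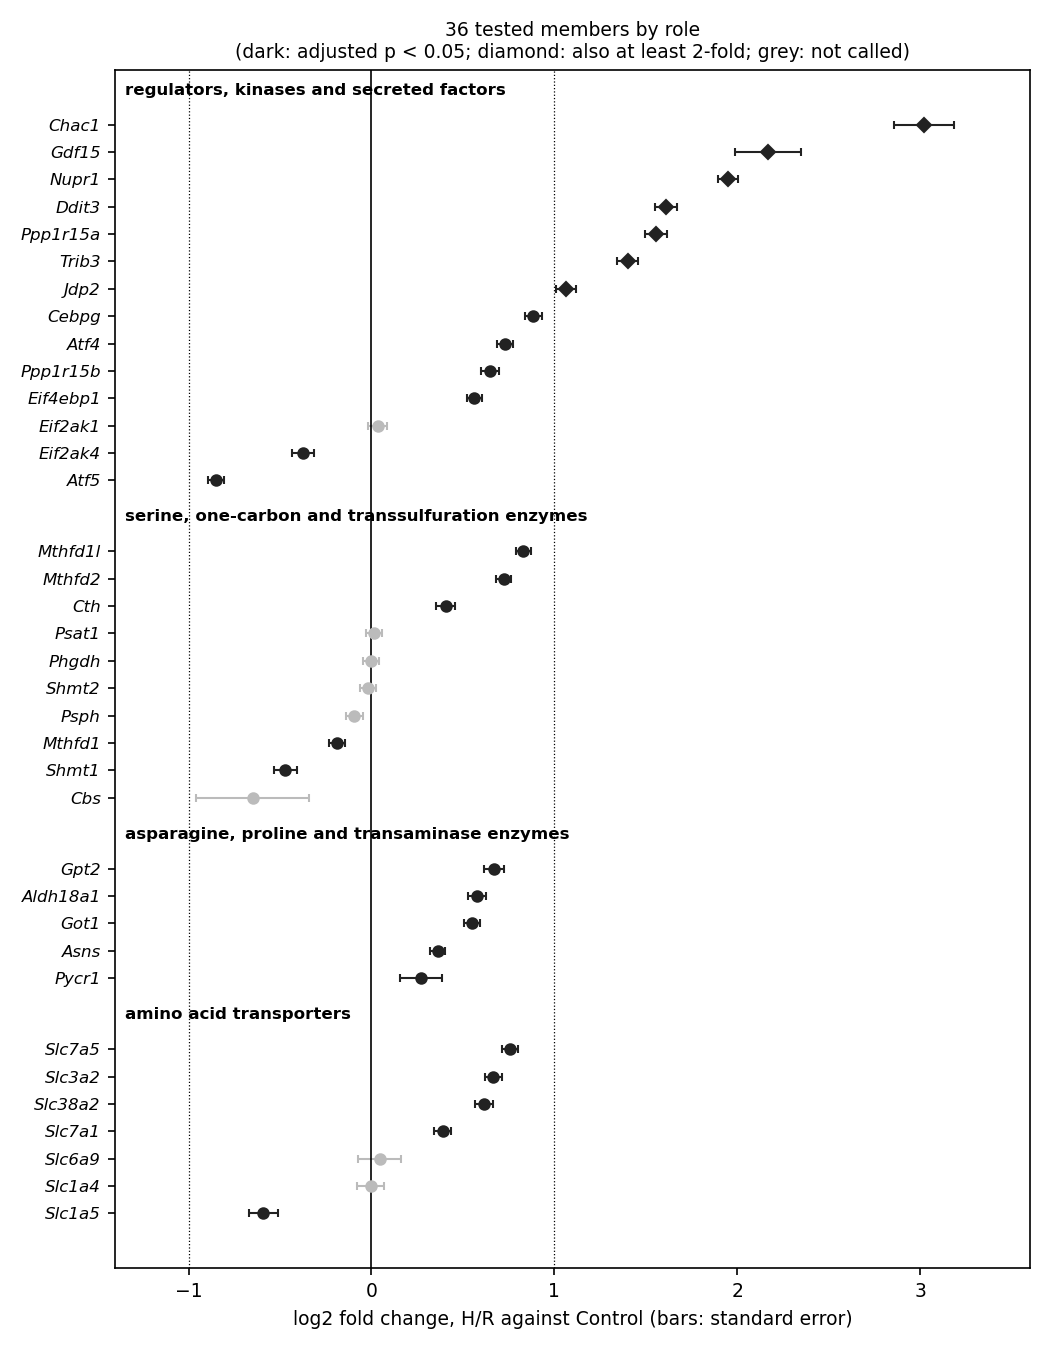
The log2 fold change of H/R against Control is shown on the horizontal axis for the 36 tested members, ordered within the 4 roles, with bars for the standard error. Dark symbols passed an adjusted p of 0.05, diamonds were also changed at least 2-fold, and grey symbols were not called; the 7 diamonds all lie in the first group, from Jdp2 at 1.07 to Chac1 at 3.02.

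Among the 14 tested regulators, kinases and secreted factors, 11 rose, 2 fell and 1 was not called, with a median log2 fold change of 0.97. Beside this, 31% of all tested genes were higher and 31.8% lower. The largest increase was that of Chac1 (chromosome 2, 119351229 to 119354381), which encodes an enzyme that degrades glutathione. Its TMM-normalized count was 75.8, 53.6 and 77.2 in the 3 Control libraries and 487, 684 and 514 in the 3 H/R libraries. The groups were far apart, although H/R replicate 2 stood above the other H/R libraries. The log2 fold change was 3.02 (SE 0.165, adjusted p = 9.05e-09 from edgeR), an 8.12-fold increase from a low Control level. Nupr1, a small stress-induced chromatin protein, had normalized counts of 563, 573 and 525 in Control and 2205, 2163 and 2046 in H/R libraries. These values hardly varied within a group, and the log2 fold change was 1.95 (SE 0.0538, adjusted p = 8.07e-26 from edgeR), or 3.86-fold.

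Ddit3, which encodes the pro-apoptotic factor CHOP, had normalized counts of 726, 628 and 635 in Control and 2086, 2126 and 1863 in H/R libraries. Its increase was 3.05-fold (log2 fold change 1.61, SE 0.0599). Trib3, a pseudokinase that restrains ATF4 and AKT, had 457, 479 and 515 in Control and 1222, 1311 and 1297 in H/R libraries, a 2.64-fold increase (log2 fold change 1.40, SE 0.0594). Jdp2, a bZIP protein that binds AP-1 and CRE sites, had 760, 765 and 746 in Control and 1493, 1658 and 1601 in H/R libraries. Its increase of 2.09-fold lay just above the 2-fold threshold (log2 fold change 1.07, SE 0.0535), and it was 0.96 on the log2 scale with library totals. The Control and H/R values of Ddit3, Trib3 and Jdp2 did not overlap.

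The secreted factors were of low abundance in these cells. Gdf15, a stress cytokine that acts on the hindbrain, had normalized counts of 38.8, 28.3 and 20.7 in Control and 128, 133 and 135 in H/R libraries. The increase was 4.49-fold (log2 fold change 2.17, SE 0.181, adjusted p = 1.37e-12 from edgeR), and the log2 fold change was 2.43 without Control replicate 1, the highest of the Control libraries. Fgf21, the hepatic fasting hormone, had 0 counts in 5 libraries and 1 count in H/R replicate 2, and Stc2, a stanniocalcin that inhibits a protease of IGF-binding proteins, had at most 3 counts in any library. Neither gene exceeded 3 counts in any library, which was taken as the floor. Both were removed by the low-count filter of edgeR (filterByExpr), so no fold change is given.

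**Figure D2:**
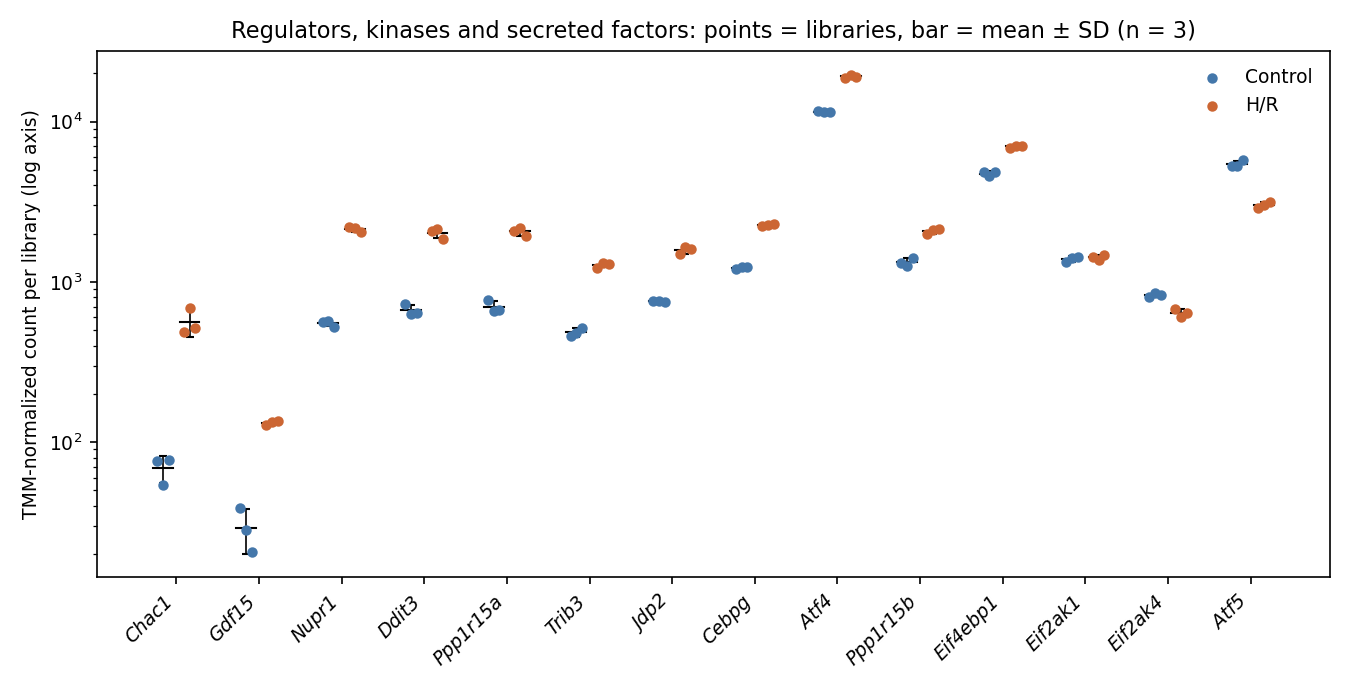
TMM-normalized counts on a log axis are shown for the 14 tested regulators, kinases and secreted factors, ordered by fold change, with a point for each library and the mean ± SD (n = 3) of Control (blue) and H/R (orange). Points of the groups do not overlap except for Eif2ak1, and at the right end Eif2ak4 and Atf5 lie lower after H/R. Such separation was common, with 32.5% of all tested genes wholly higher and 33.5% wholly lower after H/R.

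Atf4 itself was the most abundant member per length, with an RPKM of 327 ± 4.26 (SD, n = 3) in Control cells, next to Slc3a2 at 324 ± 6.58, from which it did not differ beyond the spread. The normalized count of Atf4 was 11566, 11505 and 11491 in Control and 18768, 19607 and 19044 in H/R libraries. This was a 1.66-fold increase (log2 fold change 0.73, SE 0.0438, adjusted p = 2.11e-16 from edgeR). Cebpg, the C/EBP partner of ATF4, rose from 1225 ± 26.5 to 2262 ± 22.3 (SD, n = 3 each), or 1.85-fold. Atf5, a related factor whose mRNA is also under eIF2 control, moved the opposite way. Its normalized count was 5247, 5312 and 5723 in Control and 2878, 2997 and 3150 in H/R libraries, a log2 fold change of -0.85 (SE 0.0448, adjusted p = 6.68e-18 from edgeR). In RPKM the rank of Atf5 among the 36 members went from 5 in Control to 10 after H/R.

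The genes that act on eIF2 did not move together. Ppp1r15a, which encodes the inducible phosphatase subunit GADD34 that removes phosphate from eIF2, had 774, 656 and 670 normalized counts in Control and 2088, 2177 and 1923 in H/R libraries. Its increase was 2.94-fold (log2 fold change 1.56, SE 0.0596). Ppp1r15b, the constitutive subunit, rose from 1325 ± 74.8 to 2075 ± 72.2 (SD, n = 3 each), or 1.57-fold. In RPKM the pair did not differ beyond the spread in Control cells, at 11.7 ± 0.950 and 11.6 ± 0.821, and stood at 32.0 ± 1.76 and 16.9 ± 0.703 after H/R. Of the kinases, Eif2ak4 fell from 828 ± 27.0 to 638 ± 38.5 normalized counts (log2 fold change -0.38, SE 0.0605, adjusted p = 1.80e-06 from edgeR). Eif2ak1 had 1389 ± 56.8 in Control and 1422 ± 56.3 after H/R and was not called, with a 95% interval of its log2 fold change from -0.06 to 0.13 and a sign that turned with library totals (-0.07). Eif4ebp1, which encodes the translational repressor 4E-BP1, rose 1.48-fold, from 4741 ± 145 to 6999 ± 103. Exons of Ppp1r15b and Eif2ak1 share 11.4% and 11.6% of their length with genes on the opposite strand. The libraries were made with a stranded kit, but the counting was not stated to use strand, so their values are uncertain to that extent.

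The 10 enzymes of serine, one-carbon and transsulfuration metabolism had a median log2 fold change of -0.01, with 3 higher, 2 lower and 5 not called. Over all tested genes 31% were higher and 31.8% lower. The 3 enzymes of serine synthesis from glycolytic 3-phosphoglycerate were among those not called. Phgdh, the first enzyme, had 13626, 12579 and 13440 normalized counts in Control and 13046, 13271 and 13279 in H/R libraries. The groups overlapped, and the 95% interval of the log2 fold change was -0.09 to 0.09. Psat1, the aminotransferase of the second step, had a log2 fold change of 0.01 (SE 0.0431, interval -0.07 to 0.10), and Psph, the phosphatase of the last step, one of -0.09 (SE 0.0475, interval -0.19 to -0.00). With library totals in place of TMM, the log2 fold changes of Phgdh, Psat1 and Psph were -0.11, -0.09 and -0.20, and Phgdh and Psph were then called lower (adjusted p = 0.0266 and 6.31e-04 from edgeR). Psph was also called lower with upper quartile scaling and without Control replicate 2 (adjusted p = 0.00305 and 0.0121 from edgeR), and in limma on log2(RPKM + 1) (adjusted p = 0.0180). Psph shares 10.4% of its exon length with Cct6a on the opposite strand.

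Of the folate enzymes, 2 mitochondrial ones rose and 2 cytosolic ones fell. Mthfd2, the mitochondrial methylene-tetrahydrofolate dehydrogenase, had 3653, 3518 and 3481 normalized counts in Control and 6024, 5794 and 5769 in H/R libraries, an increase of 1.65-fold (log2 fold change 0.72, SE 0.0413, adjusted p = 6.03e-17 from edgeR). Mthfd1l, which releases formate from mitochondria, had 2398, 2265 and 2340 in Control and 4112, 4206 and 4137 in H/R libraries, an increase of 1.78-fold (log2 fold change 0.83, SE 0.0425). The cytosolic enzymes were lower. Mthfd1 fell from 6974 ± 328 to 6118 ± 212 (SD, n = 3 each; log2 fold change -0.19, SE 0.0435, adjusted p = 3.09e-04 from edgeR), and Shmt1, the cytosolic serine hydroxymethyltransferase, from 781 ± 34.6 to 563 ± 25.2 (log2 fold change -0.47, SE 0.0618). Shmt2, the mitochondrial form, did not rise, with 8899 ± 156 in Control and 8772 ± 395 after H/R, and was not called under TMM scaling. It was called lower with library totals (log2 fold change -0.13, adjusted p = 0.00693 from edgeR) and in limma on log2(RPKM + 1) (adjusted p = 0.0207).

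In transsulfuration, which makes cysteine from homocysteine, Cth rose from 1589 ± 126 to 2108 ± 94.8 normalized counts (SD, n = 3 each; 1.33-fold, adjusted p = 3.97e-08 from edgeR). Cbs, the enzyme before it, was scarce, with 19, 24 and 28 deposited counts in Control and 12, 14 and 15 in H/R libraries. The groups did not overlap, but the log2 fold change of -0.65 (SE 0.310) did not pass (adjusted p = 0.0673 from edgeR). Without Control replicate 1 it was -0.79, with an adjusted p of 0.0443 from edgeR, and the adjusted p ran from 0.0257 to 0.219 over the 13 alternatives.

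**Figure D3:**
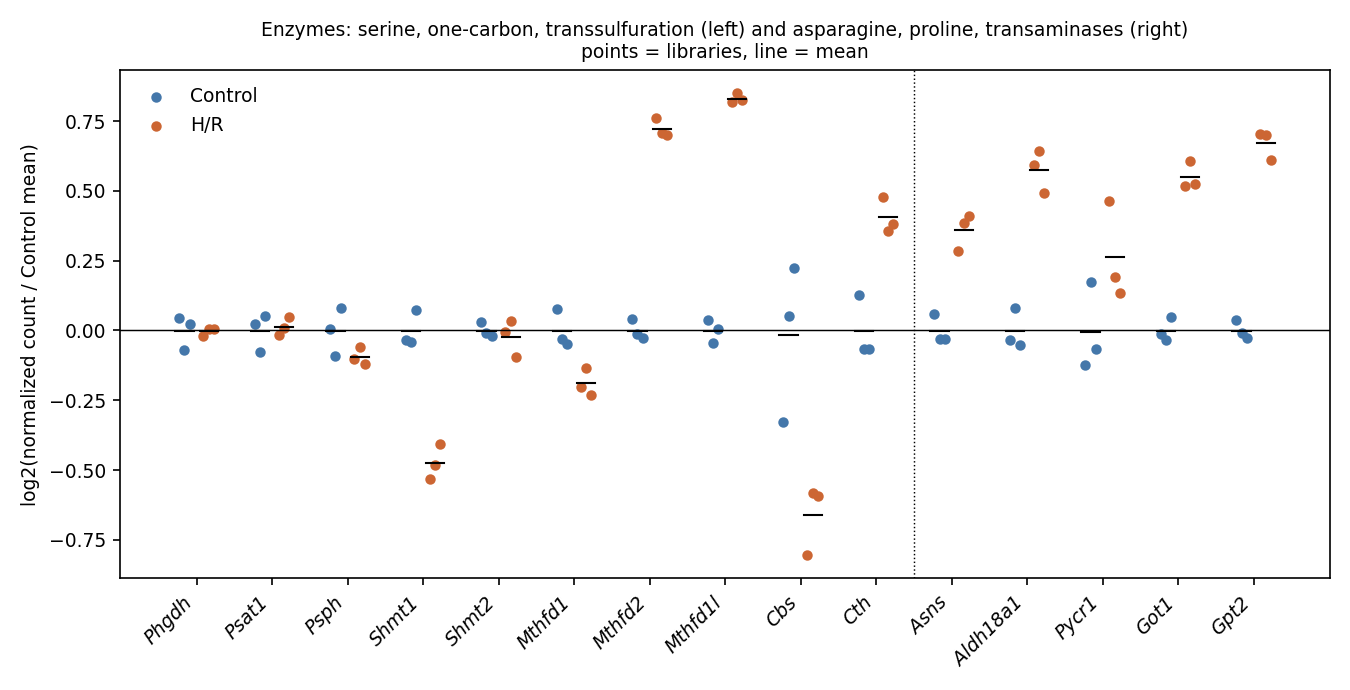
The log2 ratio of each library's normalized count to the Control mean is shown for the 10 enzymes of serine, one-carbon and transsulfuration metabolism (left of the dotted line) and the 5 of asparagine, proline and transaminase reactions (right), with a line at each group mean. Phgdh and Psat1 stay at 0 after H/R, Mthfd2 and Mthfd1l lie at 0.72 and 0.83, and the 5 genes on the right all have positive H/R means.

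All 5 enzymes of asparagine, proline and transaminase reactions were higher after H/R, with a median log2 fold change of 0.55 and none past 2-fold. Over all tested genes 31% were higher. Asns, the asparagine synthetase and a standard ATF4 target, had 5148, 4841 and 4845 normalized counts in Control and 6023, 6464 and 6568 in H/R libraries. Its increase of 1.28-fold was small beside that of the regulators, but larger than the spread (log2 fold change 0.36, SE 0.0429, adjusted p = 4.96e-09 from edgeR). Aldh18a1, which opens proline synthesis from glutamate, rose from 1783 ± 89.4 to 2660 ± 141 (SD, n = 3 each), or 1.49-fold. Gpt2, the mitochondrial alanine transaminase, rose from 716 ± 16.7 to 1141 ± 40.9, or 1.59-fold, and Got1, the cytosolic aspartate transaminase, from 1630 ± 47.8 to 2386 ± 81.4, or 1.46-fold. Pycr1, the mitochondrial last step of proline synthesis, had only 154 ± 17.4 in Control and 186 ± 23.3 after H/R, and its groups overlapped. Its adjusted p of 0.0425 (edgeR) became 0.0937 in DESeq2, 0.163 in edgeR without Control replicate 1, 0.111 without Control replicate 3 and 0.273 without H/R replicate 1, and ran from 0.0122 to 0.280 over the 13 alternatives.

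Among the 9 transporters, 7 were tested, of which 4 rose, 1 fell and 2 were not called, with a median log2 fold change of 0.39. The shares of all tested genes were 31% higher and 31.8% lower, or 62.8% in either direction. The 2 subunits of the large neutral amino acid exchanger LAT1 rose together. Slc3a2, the heavy chain, had 24179, 23475 and 22518 normalized counts in Control and 37276, 38152 and 35988 in H/R libraries, or 1.59-fold. Slc7a5, the light chain that carries the substrate, had 2462, 2627 and 2683 in Control and 4400, 4556 and 4191 in H/R libraries, or 1.69-fold (log2 fold change 0.76, SE 0.0449, adjusted p = 1.61e-16 from edgeR). Per length the heavy chain exceeded the light chain in both groups, with an RPKM of 324 ± 6.58 against 34.2 ± 2.00 in Control and 479 ± 10.6 against 53.8 ± 1.86 after H/R. Slc38a2 (SNAT2), a sodium-coupled carrier of small neutral amino acids, rose from 1564 ± 67.5 to 2395 ± 110 normalized counts (1.53-fold), and Slc7a1, the cationic amino acid carrier CAT1, from 3350 ± 263 to 4387 ± 157 (1.31-fold).

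Slc1a5 (ASCT2), which imports glutamine, had 437, 451 and 473 normalized counts in Control and 286, 299 and 317 in H/R libraries. It was the only transporter of the 7 that fell, with a log2 fold change of -0.59 (SE 0.0787, adjusted p = 5.18e-08 from edgeR). Its relative Slc1a4 (ASCT1), a carrier of serine and alanine, had 464 ± 27.6 in Control and 462 ± 21.1 after H/R, and the 95% interval of its log2 fold change was -0.15 to 0.14. The glycine transporter gene Slc6a9 had 265 ± 44.8 and 273 ± 37.4, was not called, had a difference whose sign turned with library totals (-0.06), and shares 30.2% of its exon length with other genes. Slc38a1 had 2 to 10 deposited counts, too few for a test, and Slc38a4 had 1 count in Control replicate 1 and 0 in the other libraries.

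**Figure D4:**
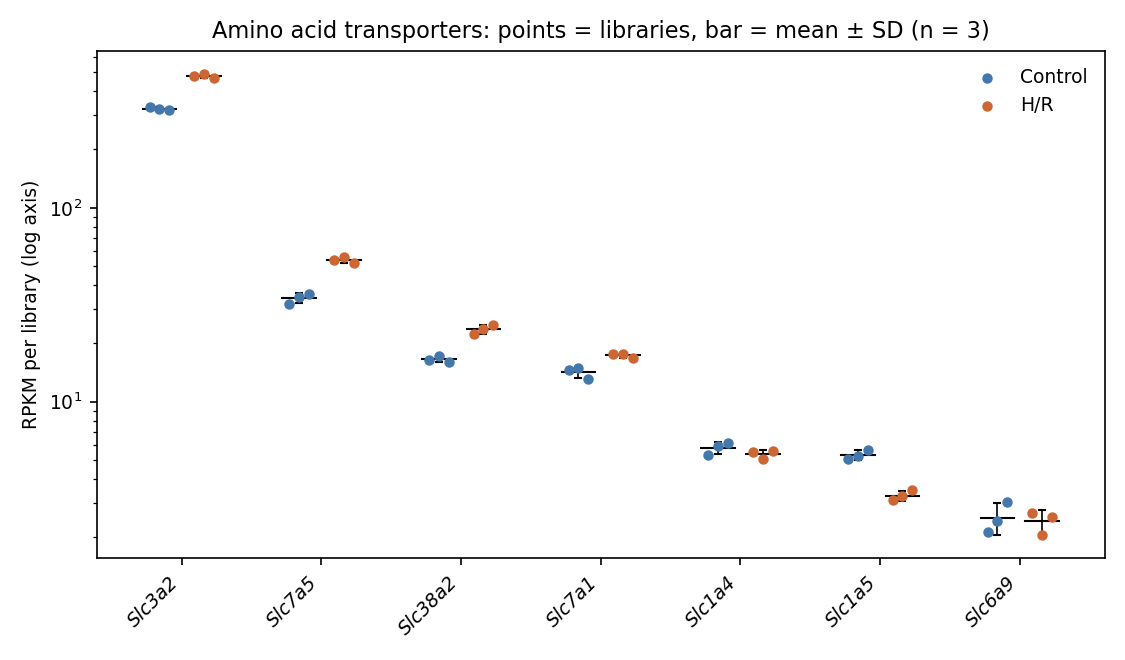
RPKM on a log axis is shown for the 7 tested amino acid transporters, ordered by their Control level, with a point for each library and the mean ± SD (n = 3) of Control (blue) and H/R (orange). Levels range from 324 for Slc3a2 to 2.53 for Slc6a9 in Control cells, the first 4 genes lie higher after H/R, and Slc1a5 lies lower.

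To compare related members without any scaling of the libraries, the log2 ratio of their RPKM was taken within each library for 10 pairs. The H/R libraries did not overlap with the Control libraries in 7 pairs. As single genes, 32.5% of all tested genes lay wholly higher and 33.5% wholly lower after H/R, so separation was common. The share among ratios of other gene pairs was not computed. The ratio of Atf4 to Atf5 changed most, from 1.30 ± 0.0716 to 2.88 ± 0.0644 on the log2 scale (SD, n = 3 each), which is from 2.46 to 7.36 in linear terms. The ratio of Mthfd1 to Mthfd2 fell from 1.04 ± 0.0309 to 0.13 ± 0.0644, so that the cytosolic enzyme went from 2.06 times the mitochondrial one to 1.09 times. The ratio of Ppp1r15a to Ppp1r15b rose by 0.91, that of Eif2ak1 to Eif2ak4 by 0.41, and those of Cbs to Cth, Slc1a5 to Slc1a4 and Shmt1 to Shmt2 changed by -1.05, -0.59 and -0.45. In each of these 7 pairs the exact two-sided permutation test gave p = 0.1, the smallest that 3 against 3 libraries allow, and 0.143 after adjustment over the 10 pairs. The ratio of Psat1 to Phgdh moved by 0.02 and that of Slc7a5 to Slc3a2 by 0.09, and in both the groups overlapped (exact permutation p = 0.4 and 0.3). The ratio of Slc38a2 to Slc38a1 rested on under 10 counts of Slc38a1 in most libraries and was not read.

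**Figure D5:**
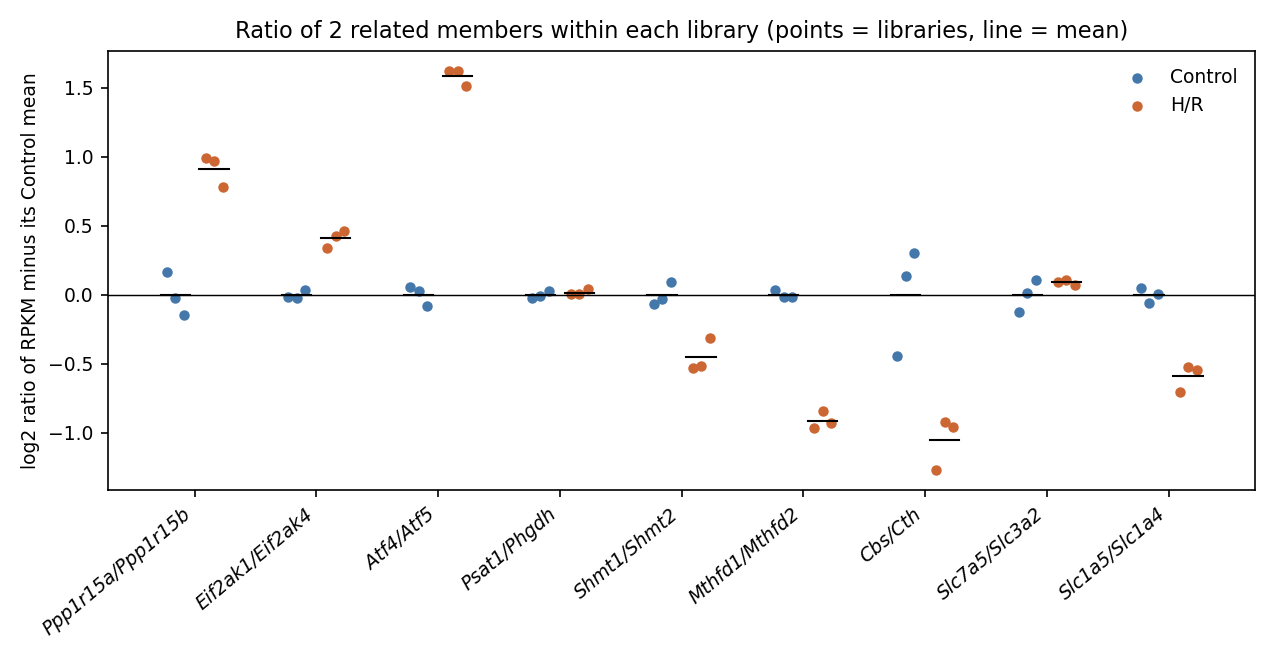
For 9 pairs of related members, the vertical axis gives the log2 ratio of their RPKM in each library minus the Control mean of that ratio, with Control in blue, H/R in orange and a line at each mean. Atf4/Atf5 rises by 1.58, Mthfd1/Mthfd2 falls by 0.91, and Psat1/Phgdh and Slc7a5/Slc3a2 stay near 0.

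A further 70 genes of the same pathways were listed, of which 58 could be tested. Of these 19 rose and 23 fell, with a median log2 fold change of -0.01. At the same threshold 31% of all tested genes were higher and 31.8% lower, with the same median of -0.01. Among 18 ATF4 targets and genes of eIF2 control, 10 rose and 3 fell. Atf3, a stress-induced partner of ATF4, rose 11.8-fold and Sesn2, an mTORC1 inhibitor, 3.03-fold, with 175, 165 and 151 normalized counts of Sesn2 in Control and 455, 578 and 454 in H/R libraries. The kinase genes of eIF2 beyond the members went in opposite directions, with Eif2ak3 (PERK) 1.86-fold higher and Eif2ak2 (PKR) at a log2 fold change of -1.26 (SE 0.0648). Ddit4, the mTORC1 inhibitor REDD1, had 1032, 1028 and 1125 deposited counts in Control and 931, 983 and 1071 after H/R and was not called (log2 fold change 0.04).

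Of 24 tested enzymes outside the members 6 rose and 11 fell, beside 31% and 31.8% of all tested genes. Mat2a, which makes S-adenosylmethionine, fell from 2533, 2569 and 2598 normalized counts in Control to 1174, 1223 and 1378 in H/R libraries (log2 fold change -1.03, SE 0.0509, adjusted p = 2.05e-18 from edgeR). Bckdha was 2.16-fold higher, but 61.7% of its exon length is shared with B3gnt8 on the opposite strand, so this value is uncertain. Of 16 tested transporters outside the members 3 rose and 9 fell, beside the same 31% and 31.8% of all tested genes. Slc43a2, a neutral amino acid carrier, had 398, 450 and 436 normalized counts in Control and 104, 132 and 121 in H/R libraries, a log2 fold change of -1.84 (SE 0.0995). Slc38a6 had a log2 fold change of -1.50 (SE 0.116), and the low genes Slc36a4 and Slc7a8 had -1.21 (SE 0.363) and 2.13 (SE 0.287). Slc7a11 (xCT), the cystine importer and a known ATF4 and NRF2 target, fell from 1053, 1118 and 1069 in Control to 562, 613 and 645 in H/R libraries (log2 fold change -0.83, SE 0.0593, adjusted p = 2.42e-14 from edgeR).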

How the data were processed

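Per the submitters' processing notes and the methods of the study, reads were trimmed with Trimmomatic 0.36, mapped to GRCm38 (software printed as STRA) and counted per gene with featureCounts of Subread 1.5.1. The methods name a stranded mRNA library kit. The annotation release and the strand setting of the counting are not given in the sources used here. The authors deposited raw counts per gene. Their deposited RPKM values could be recomputed from count, exon length and library total to a relative error of 1.13e-06.

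For each test, edgeR 4.0.16 was run under R 4.3.3 (filterByExpr, TMM, glmQLFit robust, glmQLFTest) on all 25330 genes, of which 14020 were tested with Benjamini-Hochberg adjustment. Calls used the thresholds of the study, an adjusted p under 0.05 and, where stated, a fold change of at least 2. Standard errors come from the F statistic, and 95% intervals are normal intervals from them. Normalized counts are counts over the effective library size times its mean. Levels are compared between genes only in RPKM. The scripts were tested on simulated data. Libraries of a group differed by more than counting noise (chi-square over degrees of freedom, 2.12 to 15.0). The value was 14.3 and 15.0 for Control replicate 1 against Control replicates 2 and 3, and 5.24 between those. Between H/R libraries it was 2.12 to 3.19. Each library was kept as its own replicate, but this spread does not show that the libraries came from separate cultures. Alternatives were DESeq2 1.42.0, 2 other scalings, 2 other filters, the replicate block, leaving out 1 library at a time, and limma 3.58.1 on log2(RPKM + 1).

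Exons of 10 of the 40 members overlap another gene, 4 of them over more than 10% of their length. The named genes are the 40 members, the listed pathway genes past both thresholds, and Atf3, Ddit4, Sesn2, Slc7a11 and Eif2ak3. The members and lists were chosen with earlier results of these data known. Adjusted p-values run over all tested genes.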

Additional observations from a re-analysis of the deposited data

How the results depend on the processing

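All 7 alternatives on the 6 libraries and all 6 that left out a library gave between 22 and 23 members higher and between 6 and 7 past both thresholds and higher, the gene lost at 2-fold being Jdp2 under upper quartile scaling, library totals and the RPKM fit. The number of members lower was 5, and became 9 with library totals, 8 with limma-trend on log2(RPKM + 1), 7 with upper quartile scaling, and 6 with a minimum of 10 counts in every library and without Control replicate 1 or 2. The number of other pathway genes higher was 19, and fell to 12 in the RPKM fit and 14 with library totals, against 17 to 19 in the other alternatives. The cause was not tested. Genes that were not called changed sign. Eif2ak1 was at -0.0369 with upper quartile scaling, -0.0715 with library totals and -0.0658 in the RPKM fit, Psat1 at -0.0560, -0.0907 and -0.0884, and Slc6a9 at -0.0256, -0.0610 and -0.0408 in the same order. In DESeq2 Phgdh was at 0.00771 and Slc1a4 at 0.00553. With 1 library left out the ranges were -0.0371 to 0.0206 for Phgdh, -0.0234 to 0.0405 for Psat1, -0.0509 to 0.0170 for Shmt2, -0.0596 to 0.186 for Slc6a9 and -0.0528 to 0.0314 for Slc1a4. The change in the ratio of Slc38a2 to Slc38a1 was -0.386, from -0.759 to 0.150 with 1 library left out. Deviations from the group mean had correlations of -0.03, 0.00 and -0.01 between libraries of equal replicate number. These values do not show whether such libraries were handled together. The replicate block gave 23 members higher and 5 lower as before. With the window extended to 300 bases, 9 of the 34 matched members (26.5%) held TGATGNAA, beside 4.51% of all genes with a promoter. Depth limits Fgf21, Stc2, Slc38a1 and Slc38a4.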
